A study of Homo sapiens with 9 samples.

Results

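Pseudogene loci are the stretches of the genome that hold disabled copies of genes, and 1225 of them were measured here in A549 cells, an established line from a human lung adenocarcinoma. A locus was taken when its table row carried a single gene name, when all of its transcript types were pseudogene types, and when its FPKM reached 1 in at least 3 of the 9 libraries. The deposited table held 43444 loci, of which 6050 were single-name pseudogene loci, so 1225 of 6050 passed the filter on level. Of these, 1113 were processed pseudogenes, 81 unprocessed pseudogenes, 23 ribosomal RNA pseudogenes and 8 of other pseudogene types. Total RNA of A549 cells was sequenced after 24 h with the vehicle DMSO, with RSL3 at 2 µM, or with RSL3 at 2 µM together with Fer-1 at 5 µM (labelled R_F, and called RSL3 + Fer-1 below), with 3 libraries in each group. RSL3 inhibits GPX4, the enzyme that removes lipid peroxides, and Fer-1 (ferrostatin-1) traps lipid radicals. All 9 libraries came from the same line in the same medium, and no library had Fer-1 alone. The labels do not say that the libraries of a group were separate cultures, so p-values measure only the spread between these samples.

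A processed pseudogene arises when a messenger RNA is copied into DNA and inserted elsewhere in the genome, so it lacks the introns and usually the promoter of its parent gene. An unprocessed pseudogene arises from duplication of genomic DNA and can keep introns. Highly transcribed housekeeping genes, such as those of ribosomal proteins, have left the most processed copies. RNA assigned to a pseudogene can come from the copy itself, from reads of the parent that align equally well to the copy, or from a transcript of a gene that surrounds it. The table gives no strand for its reads and the sources used here do not say how reads with several matches were placed, so these sources cannot be told apart for any single locus.

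Library totals lay between 39143521 and 45855255 estimated counts, and a count of 0 allows up to 3 counts, or 0.0658 to 0.077 CPM, with counting error only. Between 0.48 and 0.498% of each library's counts fell in pseudogene loci, and the ranges of the groups overlapped. The keratin markers KRT7, KRT8 and KRT18 were at 39.4 to 163 FPKM in all libraries, but CDH1, ALDH1A1 and AKR1B10, which are often used for this line, reached at most 0.279 FPKM. The 4 fibroblast markers summed to 1.23 to 8.7 FPKM with DMSO, 0.994 to 1.32 with RSL3 and 0.946 to 0.986 with RSL3 + Fer-1, and none was at 0 throughout a group. COL1A1 was at 4.55 and 5.78 FPKM in DMSO replicates 1 and 2 and at 1.04 in replicate 3, and COL3A1 was at 1.45, 1.87 and 0.111. The 4 blood markers summed to at most 1.52 FPKM, with CD3E and HBB at 0 in all but 1 library each, and the 3 endothelial markers to at most 0.223. The part of these differences in the results against DMSO was not tested.

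The sequences below are shown because likeness to the parent is the property by which the changes are sorted further on. Each is a stretch of 120 bases of GENCODE 29 coding sequence (GRCh38, 5′ to 3′ on the strand of the transcript) and the aligned bases of the pseudogene, with bases that differ from the parent in capitals. The stretch was the ungapped one in which the share of differences of the first copy listed was closest to that of its whole alignment. ANXA2P2 lies at chr9:33624274-33625293 on the plus strand. RPS2P5 lies at chr12:118246084-118246962 on the plus strand and RPS2P46 at chr17:19445970-19446852 on the minus strand. RPS28P7 lies at chr11:82689559-82689768 on the plus strand, TPT1P12 at chr12:9155881-9156372 on the minus strand and SF3A3P2 at chr11:123597946-123599452 on the minus strand. Each of these 6 annotated pseudogene transcripts is a single exon.
ANXA2: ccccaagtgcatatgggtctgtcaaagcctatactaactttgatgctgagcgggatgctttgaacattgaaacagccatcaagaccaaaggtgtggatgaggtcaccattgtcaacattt
ANXA2P2: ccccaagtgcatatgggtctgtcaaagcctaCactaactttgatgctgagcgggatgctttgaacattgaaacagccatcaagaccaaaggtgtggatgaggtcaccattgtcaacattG
RPS2: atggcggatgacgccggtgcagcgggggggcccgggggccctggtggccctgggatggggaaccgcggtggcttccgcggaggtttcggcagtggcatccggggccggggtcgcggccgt
RPS2P5: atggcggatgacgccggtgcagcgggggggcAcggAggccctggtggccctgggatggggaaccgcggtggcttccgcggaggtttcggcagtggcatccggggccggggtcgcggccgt
RPS2P46: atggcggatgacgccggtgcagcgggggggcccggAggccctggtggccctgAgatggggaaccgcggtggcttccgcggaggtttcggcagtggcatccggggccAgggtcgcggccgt
RPS28: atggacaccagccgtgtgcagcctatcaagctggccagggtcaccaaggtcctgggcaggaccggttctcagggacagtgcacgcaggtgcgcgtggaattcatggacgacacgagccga
RPS28P7: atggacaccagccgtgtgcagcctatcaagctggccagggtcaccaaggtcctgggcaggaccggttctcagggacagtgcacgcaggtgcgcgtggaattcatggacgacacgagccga
TPT1: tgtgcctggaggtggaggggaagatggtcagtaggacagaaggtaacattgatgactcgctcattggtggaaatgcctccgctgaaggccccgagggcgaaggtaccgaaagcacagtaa
TPT1P12: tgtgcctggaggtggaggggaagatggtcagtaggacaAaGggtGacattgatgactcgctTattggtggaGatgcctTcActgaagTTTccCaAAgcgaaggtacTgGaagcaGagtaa
SF3A3: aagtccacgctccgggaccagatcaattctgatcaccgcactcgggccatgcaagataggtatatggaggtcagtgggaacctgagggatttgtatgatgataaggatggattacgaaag
SF3A3P2: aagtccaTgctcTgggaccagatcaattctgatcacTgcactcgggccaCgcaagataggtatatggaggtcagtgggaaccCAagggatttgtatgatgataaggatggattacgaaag
In these stretches ANXA2P2 and RPS2P5 each differed from the parent at 2 bases, RPS2P46 at 3, SF3A3P2 at 6 and TPT1P12 at 16. RPS28P7 had no difference from RPS28 in this stretch or in the rest of the aligned coding sequence.

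Most pseudogene loci were low. The median level over the 1225 loci was 1.51 FPKM, with a median of 43.3 counts per library, and 64 loci averaged at least 10 FPKM. FPKM reached 1 in all 9 libraries at 497 loci and in exactly 3 libraries at 154. Just inside the limit lay AC105910, whose third-highest library was at 1.003 FPKM, and just outside lay AC008498 at 0.9999. Only 2 loci passed through the RSL3 libraries alone and 3 through the RSL3 + Fer-1 libraries alone. These 5 loci (AC007686, AC242498, RPS26P52, NDUFB4P10 and AC018620) had to differ between groups to be included, so they stand here as values only. Among the called loci named below, AC006518, BRD7P4, RPL5P4, RPS15AP29 and TPT1P12 reached FPKM 1 in no RSL3 library. The filter itself favoured low RSL3 values at such loci, so their calls in comparisons with RSL3 carry that limit. The highest FPKM values, which are scaled for length, belonged to copies of abundant messenger RNAs, some of them in short loci (135 bases for TMSB4XP8, 210 for RPS28P7). In CPM, which is not scaled for length, TMSB4XP8 averaged 53.0 with DMSO and EEF1A1P5 130. TMSB4XP8, a copy of the thymosin beta 4 gene, averaged 305 FPKM, RPS28P7 averaged 119 FPKM and RPL10P9, a copy of the gene of a large-subunit ribosomal protein, averaged 107 FPKM. RPS2P5, RPL7P1, EEF1A1P5, RPS2P46, PTGES3P1 and RPS7P1 followed at 93.2 down to 46.9 FPKM. Of these 9 loci only RPS2P5 and RPS2P46 changed in any comparison. All 9 had 98.3 to 100% identity to the parent. Across the 629 loci aligned to a parent named by their symbol, level and identity had a Spearman rho of 0.383, which is a description across loci that share libraries. The median was 2.25 FPKM at an identity of at least 95% and 1.4 FPKM below it.

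With RSL3 against DMSO, 29 of the 1225 pseudogene loci had an adjusted p under 0.05 in edgeR's quasi-likelihood test, Benjamini-Hochberg adjusted over all 17297 tested loci. This is 2.37% of the pseudogene loci beside 16.5% of all tested loci. Of the 29, 10 rose and 19 fell, beside 9.04% of all tested loci that rose and 7.46% that fell. The count includes AC007686, which had to differ to be included. It also includes RPL5P4, RPS15AP29 and TPT1P12, which passed the level filter without any RSL3 library. The median change of the 1225 loci was -0.02 on the log2 scale, with 587 above 0, and 90 had an unadjusted p under 0.05. The pseudogene loci also had fewer counts than other loci, and the median SE of their log2 change was 0.425 against 0.107. Among loci of at least 1000 counts, 11 of 42 pseudogene loci (26.2%) and 29% of the other loci were called. Between 200 and 1000 counts the shares were 5.65% and 14.0%, between 50 and 200 counts 1.55% and 3.91%, and below 50 counts 0.745% and 1.45%. In both kinds of locus the share called rose with the count. With DMSO replicates 1 and 2 left out, 11 pseudogene loci were called, 8 of them among the 29. These were AC007686, whose inclusion already required a difference, and AC009533, AL023807, AL158801, ANXA2P2, AP000936, DDX12P and TPT1P12. DESeq2 called 28, of which 22 were among the 29, and gave no adjusted p for the other 7 of the 29, which are AC003989, AC007686, AL590632, FTH1P2, RPL5P4, RPS15AP29 and TPT1P12. Limma on log2(FPKM + 1) did not call AP000925, AP000936, CHCHD4P5, DDX12P, DDX50P1, GUSBP16, HNRNPCP2, KRT8P47, MORF4L1P3 or RPL7AP6.

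**Figure D1:**
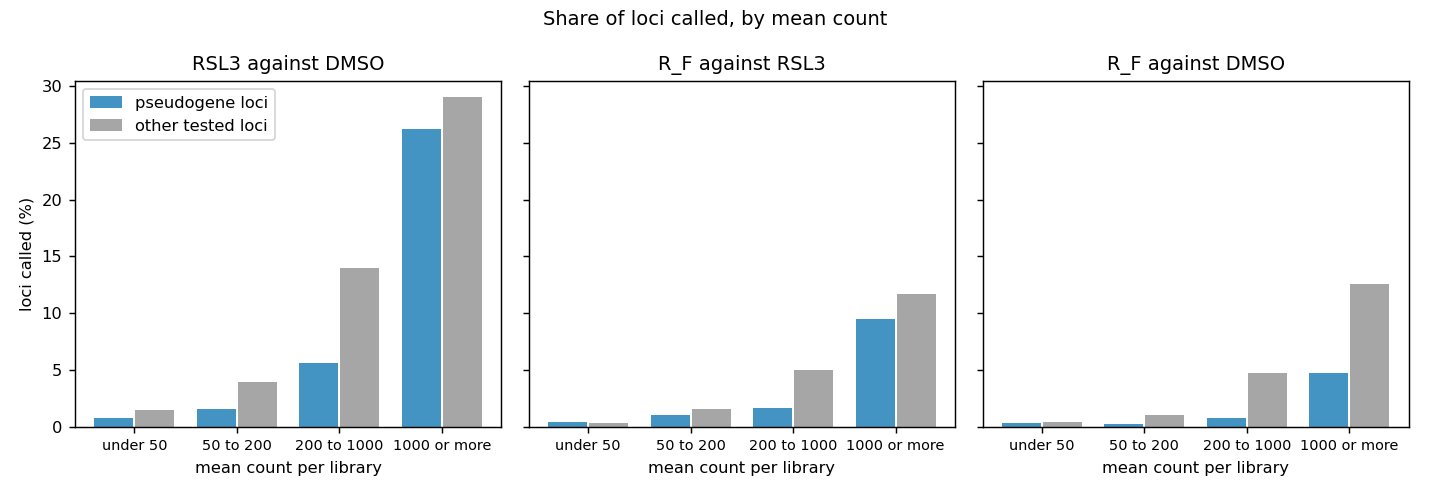
Share of loci called (y axis, percent, from 0) by mean count per library (x axis) for pseudogene loci (blue) and all other tested loci (grey) in the 3 comparisons, where R_F is RSL3 + Fer-1. With RSL3 against DMSO the blue bars rise with the count, from 0.745% to 26.2%, and the grey bar above 1000 counts stands at 29%.

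ANXA2P2, a copy of the gene of annexin A2, a calcium-dependent membrane-binding protein, rose together with its parent under RSL3. ANXA2P2 was at 28.6, 26.8 and 27.6 CPM with DMSO, at 33.3, 38.3 and 34.9 CPM with RSL3, and at 29.4, 29.1 and 28.2 CPM with RSL3 + Fer-1. All 3 RSL3 libraries lay above all 6 others. The log2 change was 0.36 ± 0.0763 (SE, edgeR adjusted p = 0.00121), beside 0.33 ± 0.032 for ANXA2, to which it has 98.4% identity over 1017 bases. This call held without any 1 library and with DMSO replicates 1 and 2 left out.

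Of the copies of the ferritin genes, 1 rose with RSL3. FTH1 and FTL encode the heavy and light chains of the iron storage protein ferritin, and both genes rose with RSL3, by 0.91 ± 0.0624 (edgeR adjusted p = 9.76e-06) and 1.17 ± 0.0766 (edgeR adjusted p = 2.23e-05) on the log2 scale. FTH1P2, at 97.5% identity, was at 0.759, 0.915 and 1.65 CPM with DMSO, 2.83, 2.23 and 1.78 CPM with RSL3 and 2.13, 1.48 and 2.15 CPM with RSL3 + Fer-1. The RSL3 libraries lay above the DMSO libraries, and the change was 1.04 ± 0.337 (edgeR adjusted p = 0.034). This call was lost without DMSO replicate 1 or 2 or RSL3 replicate 1 or 2 (highest adjusted p = 0.154), and with DMSO replicates 1 and 2 both left out (adjusted p = 0.633, log2 change 0.47).

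The other copies of the ferritin genes did not pass. FTH1P8, also at 97.5% identity, was at 0.644, 0.791 and 0.862 CPM with DMSO and 1.65, 1.14 and 1.19 CPM with RSL3, without overlap (0.79 ± 0.398, edgeR adjusted p = 0.205). FTLP3, at 97.9% identity to FTL, was at 0.161, 0.396 and 0.279 CPM with DMSO and 0.877, 0.965 and 0.644 CPM with RSL3, again without overlap (1.57 ± 0.567, edgeR adjusted p = 0.0597). In FTH1P2, FTH1P8 and FTLP3 all RSL3 libraries lay above all DMSO libraries. The share of all tested loci that separate in this way was not counted, so no link to identity is drawn from it. No DMSO library of FTLP3 reached FPKM 1, so this copy passed the level filter through treated libraries alone. FTH1P1, at 88.7% identity, was at 0.942, 0.519 and 0.955 CPM with DMSO and 0.451, 0.52 and 0.387 CPM with RSL3 (-0.83 ± 0.456, edgeR adjusted p = 0.256). FTH1P24 and FTH1P3, at 81.5% and 90.7% identity, had log2 changes of -0.56 and -0.41, and in these and in FTH1P1 the groups overlapped. FTH1P7, FTH1P16, FTH1P23, FTH1P4 and FTH1P25 had changes between 0.04 and 0.36, with overlap too, among them FTH1P7 at 97.3% identity.

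**Figure D2:**
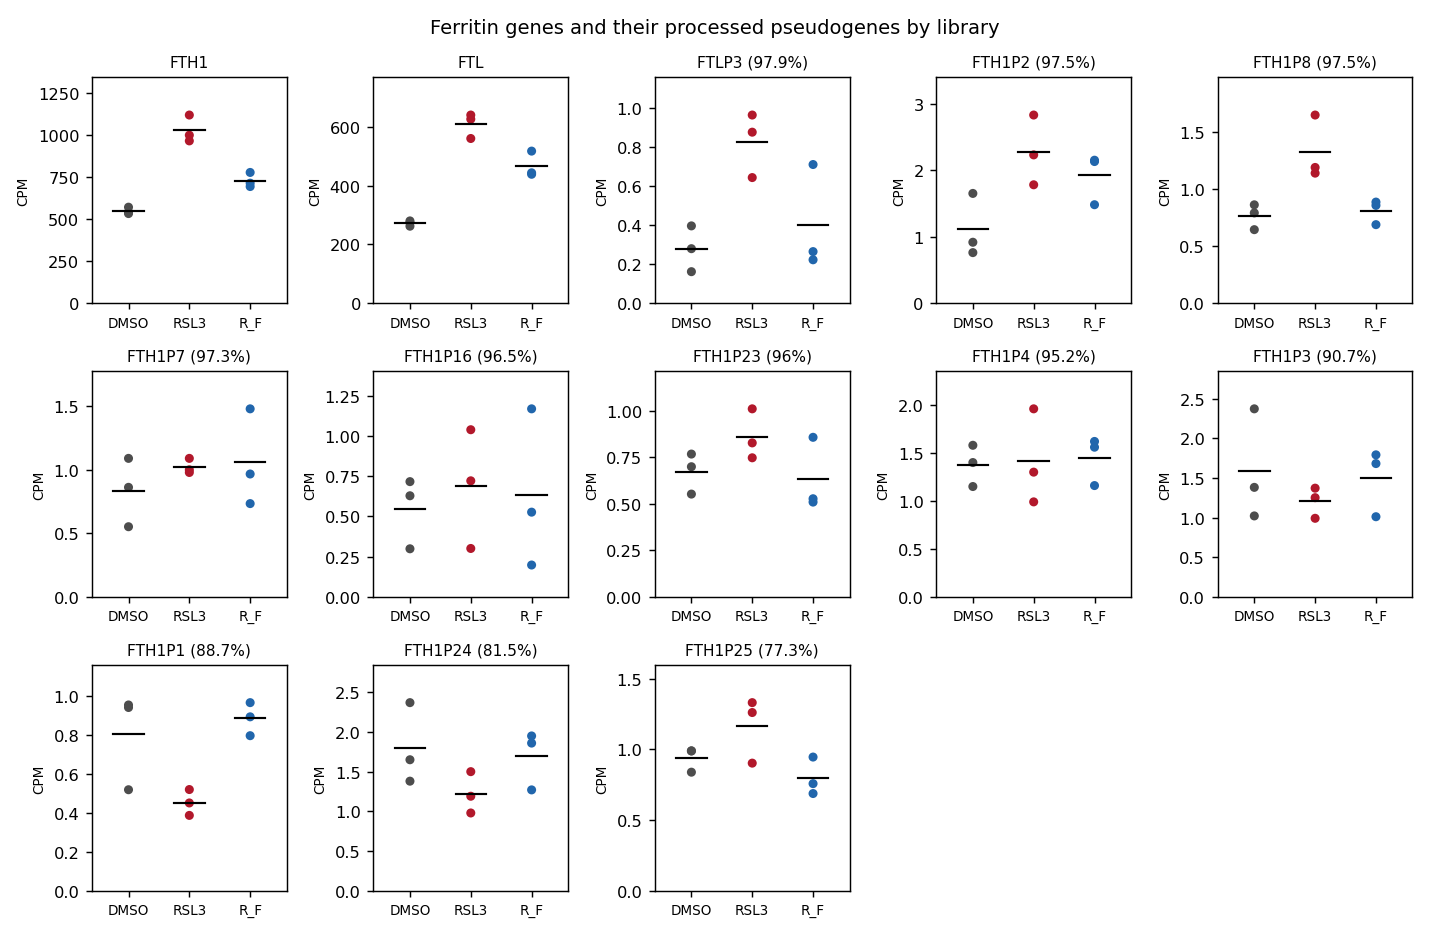
CPM (y axis of each panel, from 0) of FTH1, FTL and their processed pseudogenes in each library with DMSO (grey), RSL3 (red) and RSL3 + Fer-1 (blue, R_F), with the group mean as a bar and the identity to the parent in the panel title. FTLP3, FTH1P2 and FTH1P8 have RSL3 points above all DMSO points, but only FTH1P2 was called. FTH1P7 at 97.3% has overlapping groups, and FTH1P1 at 88.7% has a lower RSL3 mean.

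Copies of ribosomal protein genes supplied 4 of the 19 falls. RPS2P5, a copy of the gene of a small-subunit ribosomal protein, was at 104, 110 and 105 CPM with DMSO, 92.3, 97.4 and 89.1 CPM with RSL3 and 99.5, 94.6 and 94.4 CPM with RSL3 + Fer-1. RPS2P46 was at 83.7, 80.9 and 83.1 CPM with DMSO, 68.3, 76.1 and 70.6 CPM with RSL3 and 77.6, 78.7 and 72.3 CPM with RSL3 + Fer-1. In both copies every RSL3 library lay below every DMSO library. Both changed by -0.20 (SE 0.0493, edgeR adjusted p = 0.00579 for RPS2P5 and SE 0.0553, edgeR adjusted p = 0.00982 for RPS2P46), beside -0.11 ± 0.0321 for RPS2 (edgeR adjusted p = 0.0155). Their identities to RPS2 were 98.7% and 98.6%. The RPS2P46 call was lost without RSL3 replicate 1 (adjusted p = 0.0601), and both were lost with DMSO replicates 1 and 2 left out (adjusted p = 0.171 and 0.131).

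RPL5P4 and RPS15AP29 also fell with RSL3. RPL5P4, at 93.7% identity to RPL5, was at 1.98, 1.48 and 1.42 CPM with DMSO and 0.576, 0.891 and 0.747 CPM with RSL3 (-1.14 ± 0.369, edgeR adjusted p = 0.0336). RPS15AP29, at 86.9% identity to RPS15A, was at 0.552, 0.668 and 0.303 CPM with DMSO, 0.15, 0.124 and 0.0773 CPM with RSL3 and 0.459, 0.532 and 0.528 CPM with RSL3 + Fer-1. The RSL3 counts of RPS15AP29 were 6, 5 and 3, and its change was -2.08 ± 0.615 (edgeR adjusted p = 0.0186), beside -0.17 for the parent's locus. That locus joins RPS15A with ARL6IP1 and AC138811. In both copies the RSL3 libraries lay below the DMSO libraries without overlap. The RPL5P4 call was lost without DMSO replicate 1 or 2 or RSL3 replicate 1 or 3 (highest adjusted p = 0.145). The RPS15AP29 call was lost without DMSO replicate 2 or RSL3 replicate 3 (highest adjusted p = 0.0773). Of all 179 ribosomal protein copies, 1 rose and these 4 fell, 2.79% beside the 16.5% of all tested loci, with a median log2 change of -0.07. The copy that rose was RPL7AP6, described with its surrounding gene below.

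HNRNPCP2, a copy of the gene of the pre-mRNA-binding protein HNRNPC at 98.7% identity, fell with its parent. It was at 16, 16.8 and 17.0 CPM with DMSO, 12.7, 8.76 and 13.8 CPM with RSL3 and 15.4, 12.3 and 14.1 CPM with RSL3 + Fer-1. The RSL3 libraries lay below the DMSO libraries, and the change was -0.50 ± 0.137 (edgeR adjusted p = 0.0115), beside -0.22 ± 0.0287 for HNRNPC. The call was lost without RSL3 replicate 2 (adjusted p = 0.0981). NUS1P1, at 99.5% identity to NUS1, which encodes a subunit of the enzyme that builds dolichol chains, was at 4.55, 2.62 and 3.84 CPM with DMSO, 1.53, 2.15 and 2.11 CPM with RSL3 and 1.67, 2.46 and 1.45 CPM with RSL3 + Fer-1. Both treated groups lay below DMSO, by -0.93 ± 0.282 (edgeR adjusted p = 0.0224) and -0.98 ± 0.281 (edgeR adjusted p = 0.0312), while NUS1 had changes of -0.08 and -0.01. The first of these NUS1P1 calls was lost without DMSO replicate 1 or 3 or RSL3 replicate 1 (highest adjusted p = 0.14). The second was lost without DMSO replicate 1 or 3 or RSL3 + Fer-1 replicate 1 or 3 (highest adjusted p = 0.176).

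Parents were found by symbol for 638 pseudogene loci, 373 parents in all, and 630 of these loci had a tested parent. The aligned identity had a median of 92.9% (quartiles 86.5 and 97.6%), was at least 95% in 266 loci and 100% in 14. The parent was the best coding match in 620 of 629 aligned loci. With RSL3 against DMSO, 37 pseudogene loci had a parent that rose, and 27 of them had a change above 0, of which 2 were called, ANXA2P2 and FTH1P2. A parent that fell stood beside 143 pseudogene loci, of which 86 had a change below 0 and 6 were called lower. A parent that was not called stood beside 450 pseudogene loci, of which 214 had a change above 0 and 236 below. Of these 450, 9 were called (4 higher, 5 lower). Over all 638 loci with a parent by symbol 2.66% were called, beside 16.5% of all tested loci. Pearson's r between pseudogene and parent changes was 0.095 over the 630 pairs and 0.371 over the 83 pairs of at least 95% identity and 200 counts, as a description across loci that share libraries and, in part, parents. Over the same 83 pairs r was 0.367 for RSL3 + Fer-1 against RSL3 and -0.03 for RSL3 + Fer-1 against DMSO.

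In those 83 close and well-counted pairs, the 7 whose parent rose all had a change above 0, and 14 of the 17 whose parent fell had a change below 0. Of the 59 whose parent was not called, 35 also had a change below 0 and 24 above. Among the 14 were TWF1P1 at -0.01 and MORF4L1P1 and RALGAPA1P1 at -0.02. The 83 were picked by identity and count together, so the part of each was not tested. The 7 were ANXA2P2, AK4P1, BZW1P2, CEP170P1, NAMPTP1, TCAF1P1 and TPI1P1. NAMPTP1, a copy of the gene of an enzyme of NAD synthesis, had a log2 change of 0.30 ± 0.138 beside 0.26 for NAMPT (edgeR adjusted p = 0.149). TPI1P1, a copy of the gene of the glycolytic enzyme triosephosphate isomerase, had 0.35 ± 0.159 beside 0.15 for TPI1 (edgeR adjusted p = 0.153). AK4P1, a copy of the gene of a mitochondrial adenylate kinase, had 0.14 ± 0.138 beside 0.28 for AK4 (edgeR adjusted p = 0.596). BZW1P2 had the widest error of the 7, at 1.44 ± 1.51 beside 0.10 for BZW1 (edgeR adjusted p = 0.632). Only ANXA2P2 passed the test among the 7. The same 7 pairs all had changes below 0 in RSL3 + Fer-1 against RSL3, at -0.70 ± 1.47 for BZW1P2 and from -0.14 to -0.41 for the others. Their parents changed by -0.09 to -0.27. Since both comparisons share the RSL3 libraries, these are given side by side only. Against the direction of a falling parent stood LSM12P1 (0.50 ± 0.372), PTGES3P1 (0.06 ± 0.0775) and VDAC1P1 (0.05 ± 0.152), none of them called.

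**Figure D3:**
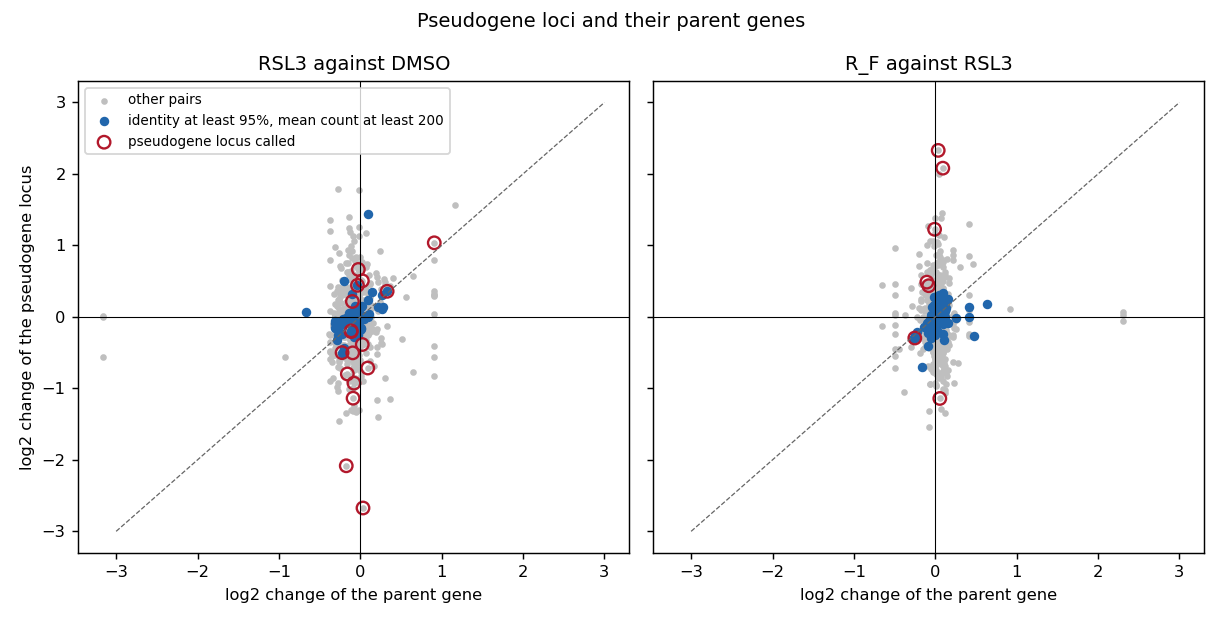
Log2 change of each pseudogene locus (y axis) against that of its parent (x axis) with RSL3 against DMSO (left) and RSL3 + Fer-1 against RSL3 (right, R_F against RSL3), with equal change as a dashed line. Blue points have at least 95% identity and 200 counts (83 pairs), grey points are the other pairs, and red rings mark called pseudogene loci. The called TPT1P12 (-2.67) and RPS15AP29 (-2.08) lie below parents with changes of 0.03 and -0.17.

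Of the 1225 pseudogene loci, 975 lay inside another annotated gene, 721 on its opposite strand and 254 on its strand, and 60 overlapped an exon of another gene. For 867 of them a locus with the surrounding gene's name on the same chromosome was tested. For the pseudogenes named here, the loci of IMMP2L, SMYD3, CDK17, PDE3A, SIK3, PRH1, PPM1G, RSF1 and TANC1 do not themselves reach the pseudogene. How many of the 867 pairs are of this kind was not counted. With RSL3 against DMSO the surrounding gene rose for 115 of these, of which 69 had a change above 0, 6 were called higher and 1 lower. It fell for 107, of which 67 had a change below 0, 4 were called lower and none higher by edgeR, with 40 above 0. The other 645 had a surrounding gene that was not called, with 305 above 0 and 340 below, and 6 of them were called lower. Over all 1225 pseudogene loci 2.37% were called, beside 16.5% of all tested loci. Pearson's r between the pseudogene and the surrounding gene was 0.211 over the 867 and 0.342 over the 69 of at least 200 counts, again as a description.

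TPT1P12 fell furthest among the loci called with RSL3 against DMSO. It is a copy of TPT1, which encodes the translationally controlled tumour protein, with 77.1% identity, and it lies on the same strand inside PZP, which encodes the protease inhibitor pregnancy zone protein. TPT1P12 was at 1.31, 1.9 and 1.68 CPM with DMSO, 0.301, 0.0742 and 0.387 CPM with RSL3 and 0.459, 1.04 and 0.352 CPM with RSL3 + Fer-1. All DMSO libraries lay above all 6 others. The change with RSL3 was -2.67 ± 0.54 (edgeR adjusted p = 0.000686), beside -2.10 ± 0.182 for PZP and 0.03 ± 0.0396 for TPT1. PZP itself was at 10.2, 10.0 and 10.5 CPM with DMSO and 2.13, 2.38 and 2.63 CPM with RSL3. The TPT1P12 call held without any 1 library. Its RSL3 counts were 12, 3 and 15, so RSL3 replicate 2 lay at the 3 counts that a count of 0 allows. The locus passed the level filter through the DMSO libraries and RSL3 + Fer-1 replicate 2 alone. Its call and the size of its fall are therefore not free of that filter.

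SF3A3P2 and RPL7AP6 lie on the opposite strand inside genes that rose. SF3A3P2, a copy of a splicing factor gene at 94.6% identity, lies inside GRAMD1B, which encodes a protein of cholesterol transport between membranes. It was at 5.7, 4.52 and 5.61 CPM with DMSO, 8.07, 7.77 and 9.28 CPM with RSL3 and 9.03, 7.4 and 7.82 CPM with RSL3 + Fer-1. Both treated groups lay above DMSO, by 0.66 ± 0.156 (edgeR adjusted p = 0.0032) and 0.61 ± 0.156 (edgeR adjusted p = 0.0139). GRAMD1B changed by 0.92 and 0.65 in the same comparisons, and the locus that joins SF3A3 with FHL3 had -0.02 and 0.12. The second SF3A3P2 call was lost without DMSO replicate 2 or RSL3 + Fer-1 replicate 1 (highest adjusted p = 0.097), and both were lost with DMSO replicates 1 and 2 left out (adjusted p = 0.122 and 0.282).

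RPL7AP6, a ribosomal protein copy at 98.5% identity, lies inside SMOC1, which encodes a secreted calcium-binding protein. It was at 11.9, 14.3 and 12.3 CPM with DMSO and 19.2, 14.2 and 18.7 CPM with RSL3, with RSL3 replicate 2 inside the DMSO range. Its change was 0.44 ± 0.147 (edgeR adjusted p = 0.0441), beside 0.73 ± 0.0381 for SMOC1 and -0.03 ± 0.0372 for RPL7A. The call was lost without DMSO replicate 1 or 3 or RSL3 replicate 1 or 3 (highest adjusted p = 0.173). AK3P5, at 91.4% identity to the mitochondrial kinase gene AK3, lies inside ITGB1, the gene of integrin beta 1. It was at 5.93, 6.26 and 5.78 CPM with DMSO and 7.79, 7.55 and 10.2 CPM with RSL3, without overlap. AK3P5 changed by 0.50 ± 0.155 (edgeR adjusted p = 0.0245), ITGB1 by 0.24, and AK3 had 0.03. The AK3P5 call was lost without DMSO replicate 1 or 3 or RSL3 replicate 3 (highest adjusted p = 0.171).

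AP000925, whose best coding match is KRT8 at 83.4%, lies on the opposite strand inside SIK2, the gene of a salt-inducible kinase. It was at 4.53, 2.77 and 2.56 CPM with DMSO, 1.5, 2.13 and 1.98 CPM with RSL3 and 4.06, 3.83 and 6.0 CPM with RSL3 + Fer-1. The RSL3 libraries lay below both other groups. AP000925 changed by -0.81 ± 0.262 (edgeR adjusted p = 0.0329) with RSL3 and by 1.31 ± 0.261 (edgeR adjusted p = 0.00157) when Fer-1 was added, and SIK2 changed by -0.41 ± 0.0528 and 0.55 ± 0.0528. The first AP000925 call was lost without DMSO replicate 1 or RSL3 replicate 1 or 3 (highest adjusted p = 0.271), and the second held without any 1 library. MORF4L1P3, a copy of a chromatin protein gene inside PDE3B, changed by -0.80 ± 0.253 (edgeR adjusted p = 0.0293), beside -0.26 for PDE3B and -0.16 for MORF4L1. The MORF4L1P3 call was lost without DMSO replicate 2 or RSL3 replicate 3 (highest adjusted p = 0.264).

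AC003989, whose best coding match is ADAT2 at 89.8%, rose inside IMMP2L on the opposite strand. Its counts were 13, 12 and 14 with DMSO, 32, 44 and 50 with RSL3 and 28, 38 and 61 with RSL3 + Fer-1. Both treated groups lay above DMSO, by 1.78 ± 0.47 (edgeR adjusted p = 0.00847) and 1.61 ± 0.469 (edgeR adjusted p = 0.0349). IMMP2L had changes of 0.23 and 0.17. The second AC003989 call was lost without any 1 of the 3 DMSO libraries or RSL3 + Fer-1 replicate 2 or 3 (highest adjusted p = 0.225).

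Other pseudogenes did not follow the gene around them. HMGB1P6 had a change of -0.14 inside THSD4, which rose by 0.78. RPS15AP29 fell by 2.08 inside NT5C2, the gene of a cytosolic nucleotidase, which rose by 0.22. DDX50P1, at 94.5% identity to the helicase gene DDX50, fell by 0.72 (edgeR adjusted p = 0.029) inside SLC30A6, a zinc transporter gene whose change was 0.13, while DDX50 had 0.09. The DDX50P1 call was lost without DMSO replicate 1 or 3 or RSL3 replicate 1 or 3 (highest adjusted p = 0.124). AL590632, whose best coding match is RPS24, changed by -1.29 ± 0.407 (edgeR adjusted p = 0.0282) inside CEP350, which had -0.09. That call was lost without DMSO replicate 1 or 2 or RSL3 replicate 1 or 3 (highest adjusted p = 0.17).

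**Figure D4:**
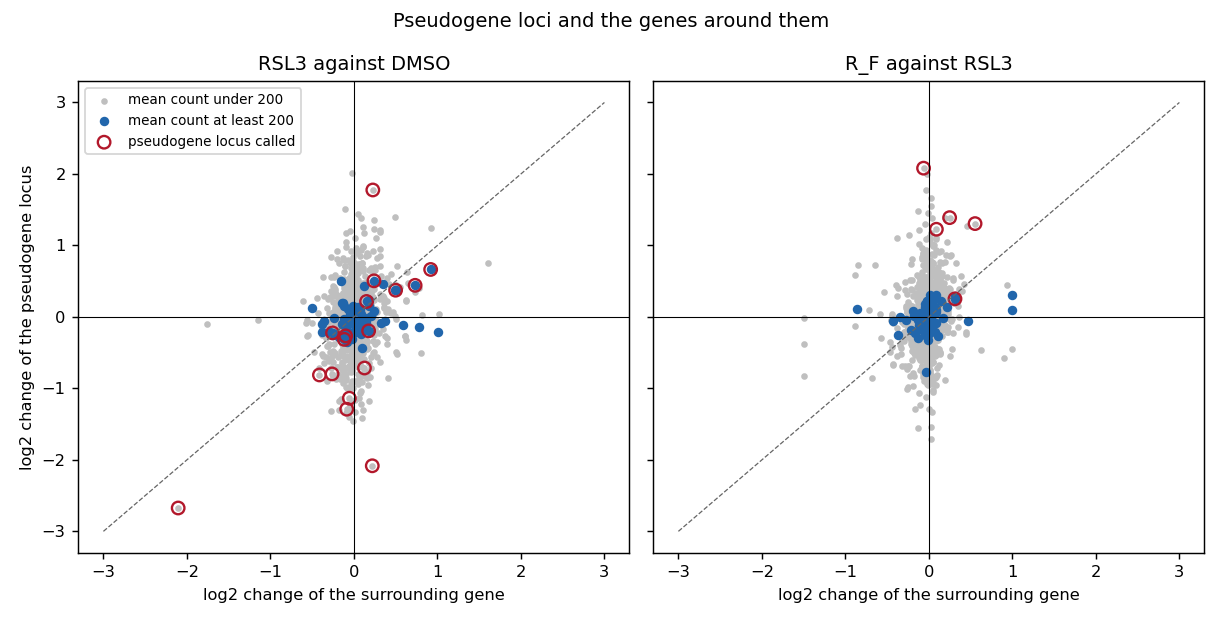
Log2 change of each pseudogene locus (y axis) against that of the gene it lies in (x axis) with RSL3 against DMSO (left) and RSL3 + Fer-1 against RSL3 (right, R_F against RSL3), with equal change as a dashed line. Blue points average at least 200 counts, grey points fewer, and red rings mark called pseudogene loci. TPT1P12 is the lowest ring on the left, at -2.67 beside -2.10 for PZP.

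The table's loci were assembled from reads, and some reach far beyond the annotated pseudogene. The locus had exactly the annotated span in 1122 of 1221 cases with a GENCODE 29 transcript, and 17 of these 1122 (1.52%) were called with RSL3 against DMSO. In 56 cases the locus was more than 2 times as long, with a median of 596 counts per library, and 9 of the 56 (16.1%) were called, a share near the 16.5% of all tested loci. A change of such a locus is that of all its assembled transcripts. The KRT8P47 locus, at chr1:44103306-44115960, also overlaps an exon of AL139220.2. KRT8P47, a copy of the keratin gene KRT8 at 90.2% identity, had an annotated length of 1398 bases in this locus of 12655 bases. It was at 22.6, 29 and 22.8 CPM with DMSO, 19.1, 17.4 and 16 CPM with RSL3 and 25.6, 23.2 and 22.2 CPM with RSL3 + Fer-1. The RSL3 libraries lay below both other groups, by -0.50 ± 0.104 against DMSO (edgeR adjusted p = 0.000915), while KRT8 had -0.09. It was not called by edgeR with DMSO replicates 1 and 2 left out (adjusted p = 0.11).

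AC011352 (best match FPR3 at 76.6%, 1016 annotated bases in a locus of 14575) was at 43.0, 39.9 and 43.6 CPM with DMSO, 60.0, 48.7 and 52.6 CPM with RSL3 and 36.8, 38.2 and 42.3 CPM with RSL3 + Fer-1. Its RSL3 libraries lay above both other groups, by 0.35 ± 0.0755 against DMSO (edgeR adjusted p = 0.00142). CHCHD4P5 (427 annotated bases in a locus of 34127) was at 102, 104 and 106 CPM with DMSO and 123, 115 and 125 CPM with RSL3. The change of CHCHD4P5 was 0.22 ± 0.0475 (edgeR adjusted p = 0.00164), beside 0.15 for a locus named for SMYD3, the gene it lies in, and -0.10 for CHCHD4. With DMSO replicates 1 and 2 left out, the calls of AC011352 (adjusted p = 0.0926) and CHCHD4P5 (adjusted p = 0.105) were lost. The AP000936 locus (45297 bases, 255 of them annotated) ends at the base before a locus named for SIK3 begins, and the former changed by -0.22 and the latter by -0.26. Among other extended loci AL023807, AL139396 and AL158801 changed by -0.27, -0.27 and -0.31, AC125612 by 0.37 and GUSBP16 by -0.39. AC125612 lies inside CDK17 on the same strand, and a locus named for CDK17 changed by 0.50 ± 0.161 (edgeR adjusted p = 0.033). AL023807 and AL158801 lie on the opposite strand inside KIF13A and FBXO34, which had -0.10 and -0.12 and were not called. The AL139396 locus overlaps an exon of KANTR. AC125612 lost its call without DMSO replicate 1 or 2 (highest adjusted p = 0.0709), and GUSBP16 without DMSO or RSL3 replicate 1 or 2 (highest adjusted p = 0.123).

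Both called unprocessed pseudogenes whose best coding match is the DNA helicase gene DDX11 fell while DDX11 had a log2 change of 0.09 ± 0.0541. AC009533, at 97.8% identity, was at 42.9, 45.5 and 45.0 CPM with DMSO, 33.3, 30.7 and 32.9 CPM with RSL3 and 35.6, 40.3 and 37.2 CPM with RSL3 + Fer-1. The 3 groups did not overlap, and the changes from DMSO were -0.46 ± 0.0705 with RSL3 (edgeR adjusted p = 2.27e-05) and -0.24 ± 0.0699 with RSL3 + Fer-1 (edgeR adjusted p = 0.0366). The first held without any 1 library and with DMSO replicates 1 and 2 left out. The second was lost without DMSO replicate 2 or 3 or RSL3 + Fer-1 replicate 1 or 3 (highest adjusted p = 0.151). DDX12P, at 93.5% identity, was at 49.0, 49.2 and 53.5 CPM with DMSO, 45.8, 39.1 and 44.1 CPM with RSL3 and 50.9, 51.4 and 51.7 CPM with RSL3 + Fer-1. Its RSL3 libraries lay below both other groups, by -0.23 ± 0.067 against DMSO (edgeR adjusted p = 0.0156). That DDX12P call was lost without DMSO replicate 3 or RSL3 replicate 2 (highest adjusted p = 0.112). The DDX12P locus also overlaps an exon of AC092821.3. Of the 81 unprocessed pseudogene loci 4 (4.94%) were called with RSL3, 4 of them lower, beside 16.5% called and 7.46% lower among all tested loci.

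AC007686, whose best coding match is the ribosomal protein gene RPLP1 at 93.2%, passed the level filter through the RSL3 libraries alone. Its counts were 2, 0 and 0 with DMSO, 32, 26 and 27 with RSL3 and 6, 3 and 0 with RSL3 + Fer-1. The RSL3 libraries stood above all 6 others. RPLP1 had a log2 change of -0.09 ± 0.0492.

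When Fer-1 was added to RSL3, 13 pseudogene loci passed in edgeR, which is 1.06% beside 6.46% of all tested loci. Of the 13, 9 were higher and 4 lower, beside 2.47% and 3.99% of all tested loci, and 71 pseudogene loci had an unadjusted p under 0.05. This count fell to 6 without RSL3 replicate 2, to 7 without RSL3 + Fer-1 replicate 1 and to 8 without RSL3 + Fer-1 replicate 2, and limma on log2(FPKM + 1) called 6 (AC007686, AC112777, BRD7P4, DDX12P, KRT8P47, NDUFB4P10 and RPS15AP29 were not among them). DESeq2 gave no adjusted p for 5 of the 13 (AC006518, AC007686, BRD7P4, NDUFB4P10 and RPS15AP29). The 4 lower loci were METTL15P1, AC007686, AC011352 and ANXA2P2. METTL15P1, at 99.2% identity over 603 bases to the gene of a mitochondrial ribosomal RNA methyltransferase, was at 2.97, 2.87 and 2.66 CPM with DMSO, 4.64, 4.53 and 3.56 CPM with RSL3 and 2.57, 1.86 and 1.34 CPM with RSL3 + Fer-1. The 3 groups did not overlap, with RSL3 highest and RSL3 + Fer-1 lowest. METTL15P1 changed by -1.14 ± 0.252 (edgeR adjusted p = 0.0042) and METTL15 had 0.06 ± 0.0675, and this call held without any 1 library. ANXA2P2 changed by -0.30 ± 0.076 (edgeR adjusted p = 0.0148) beside -0.25 ± 0.032 for ANXA2, and lost its call without RSL3 replicate 2 or RSL3 + Fer-1 replicate 2 or 3 (highest adjusted p = 0.11). AC011352 changed by -0.46 ± 0.0756 (edgeR adjusted p = 0.00016), and held without any 1 library.

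The 9 higher loci were AP000925, KRT8P47, AC112777, DDX12P, AC006518, SNX18P7, BRD7P4, RPS15AP29 and NDUFB4P10, the last of which had to differ to be included, as did AC007686 among the lower. AC006518, BRD7P4 and RPS15AP29 passed the level filter without any RSL3 library. KRT8P47 changed by 0.44 ± 0.104 (edgeR adjusted p = 0.00821), and lost its call without RSL3 replicate 3 or RSL3 + Fer-1 replicate 1 (highest adjusted p = 0.0656), while KRT8 had -0.08. AC112777, whose best coding match is UHRF1 at 99.4% over the annotated copy, is a locus of 44139 bases inside PDE3A, the gene of a phosphodiesterase. AC112777 was at 109, 109 and 113 CPM with RSL3 and 141, 138 and 115 CPM with RSL3 + Fer-1, without overlap (0.25 ± 0.0618, edgeR adjusted p = 0.0155), beside 0.31 ± 0.0362 for PDE3A. This call was lost without RSL3 or RSL3 + Fer-1 replicate 1 or 2 (highest adjusted p = 0.0944). SNX18P7, at 75.4% identity to a sorting nexin gene, was at 7.54, 7.15 and 7.68 CPM with RSL3 and 10.8, 10.9 and 9.67 CPM with RSL3 + Fer-1, without overlap (0.49 ± 0.132, edgeR adjusted p = 0.0218). SNX18P7 lost its call without RSL3 or RSL3 + Fer-1 replicate 1 or 2 (highest adjusted p = 0.0914), and SNX18 had -0.10.

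BRD7P4, at 94.6% identity to the bromodomain gene BRD7, was at 1.15, 0.965 and 0.902 CPM with RSL3 and 2.38, 1.48 and 3.21 CPM with RSL3 + Fer-1, without overlap (1.23 ± 0.337, edgeR adjusted p = 0.0247). BRD7 had -0.01, and REV3L, the gene BRD7P4 lies in, had 0.09. AC006518 was at 0.952, 0.569 and 0.928 CPM with RSL3 and 2.48, 1.95 and 2.0 CPM with RSL3 + Fer-1, without overlap (1.39 ± 0.366, edgeR adjusted p = 0.0178). DDX12P changed by 0.25 ± 0.0669 (edgeR adjusted p = 0.0174) and RPS15AP29 by 2.08 ± 0.613 (edgeR adjusted p = 0.0384). Each of these 4 calls was lost without at least 1 library. The highest adjusted p was 0.199 for BRD7P4 (without RSL3 replicate 2 or 3 or RSL3 + Fer-1 replicate 1 or 3), 0.092 for AC006518 (without RSL3 replicate 2 or RSL3 + Fer-1 replicate 1), 0.124 for DDX12P (without RSL3 replicate 2 or RSL3 + Fer-1 replicate 2 or 3) and 0.132 for RPS15AP29 (without any 1 of the 6 libraries). NDUFB4P10 passed the level filter through the RSL3 + Fer-1 libraries alone, with counts of 8, 5 and 0 with RSL3, 22, 28 and 25 with RSL3 + Fer-1 and 5, 5 and 3 with DMSO. When a surrounding gene fell in this comparison, which was the case for 59 pseudogene loci in 49 genes, 49 had a change below 0 and none was called. When it rose, 27 of 38 had a change above 0 and 2 were called. For the 770 loci whose surrounding gene was not called, 372 had a change above 0 and 398 below, and 3 were called. Over all pseudogene loci 1.06% were called in this comparison, beside 6.46% of all tested loci.

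With RSL3 + Fer-1 against DMSO, 6 pseudogene loci passed in edgeR, 3 higher (AC003989, SF3A3P2 and NDUFB4P10, which had to differ to be included) and 3 lower (AC009533, AL158801 and NUS1P1). This is 0.49% beside 6.69% of all tested loci, of which 4.03% were higher and 2.66% lower, and 58 had an unadjusted p under 0.05. The count was 1 without DMSO replicate 3 and 3 without RSL3 + Fer-1 replicate 1 or 3. Limma on log2(FPKM + 1) did not call AC009533, NDUFB4P10 or NUS1P1, and DESeq2 gave no adjusted p for AC003989 and NDUFB4P10. AL158801, a locus of 11723 bases inside FBXO34 around a copy whose best coding match is RPL34, was at 37.5, 37.5 and 40.8 CPM with DMSO, 31.4, 30.8 and 30.9 CPM with RSL3 and 32.8, 31.5 and 29.6 CPM with RSL3 + Fer-1. DMSO lay above both treated groups, which overlapped each other. AL158801 changed by -0.30 ± 0.0723 (edgeR adjusted p = 0.00869), beside -0.10 for FBXO34, and lost its call without DMSO replicate 3 or RSL3 + Fer-1 replicate 3 (highest adjusted p = 0.0733).

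**Figure D5:**
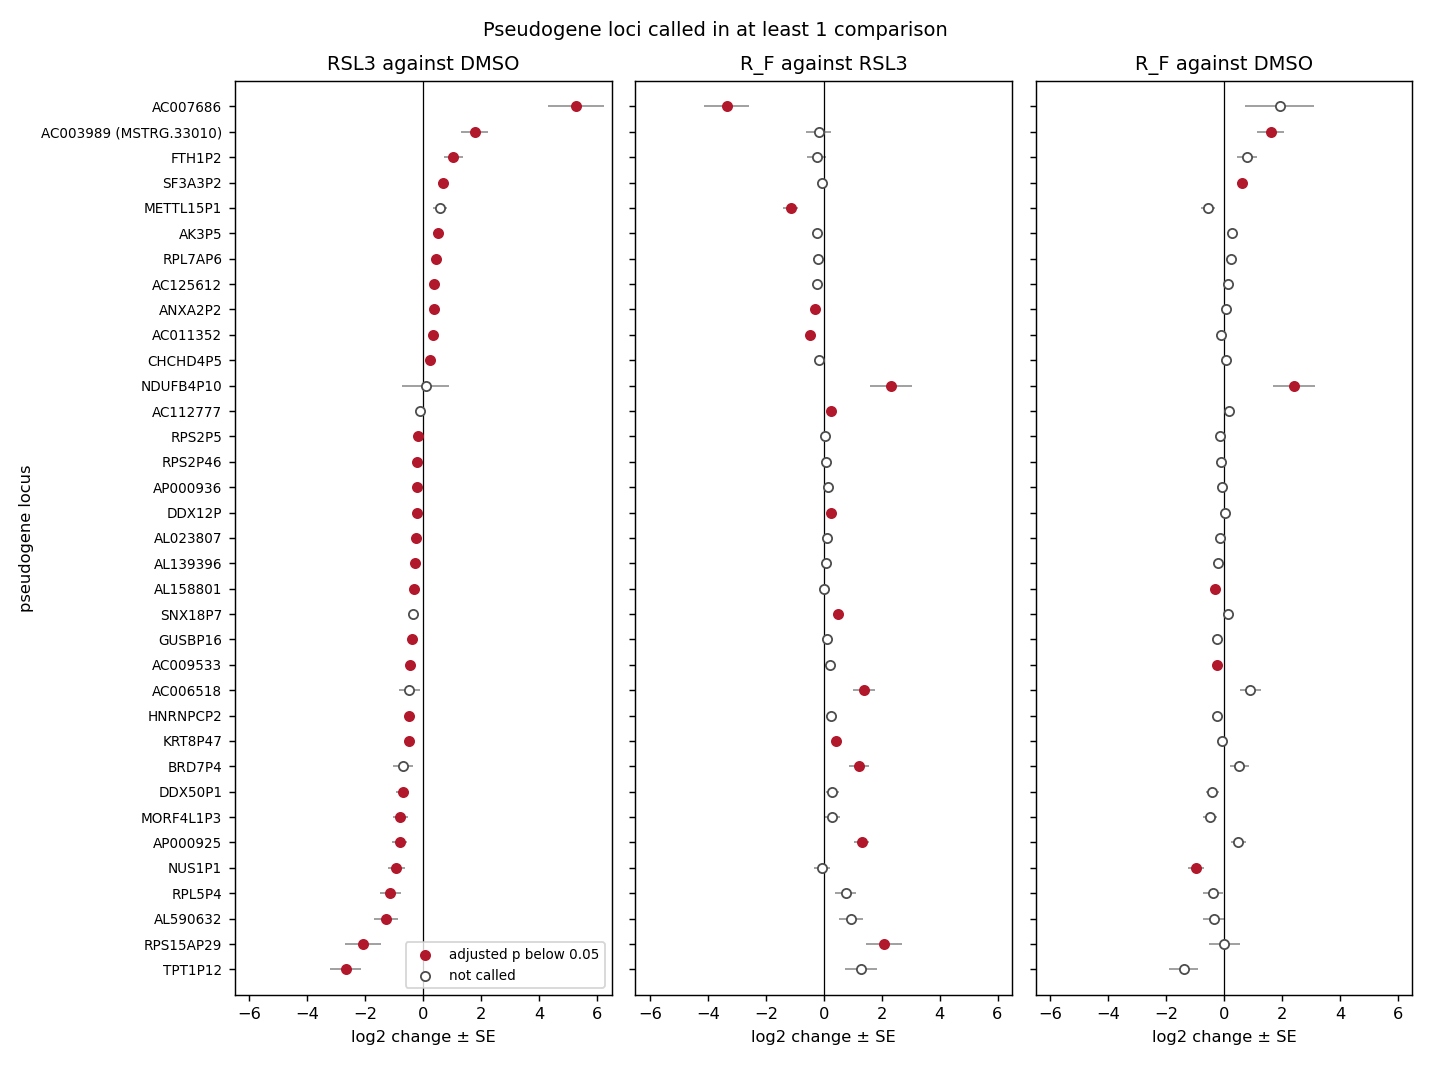
Log2 change ± SE (x axis) of the 35 pseudogene loci (y axis) called in at least 1 of the 3 comparisons, with called changes filled in red and others open, where R_F is RSL3 + Fer-1. TPT1P12 (-2.67) and RPS15AP29 (-2.08) are lowest with RSL3 against DMSO. AC007686 and NDUFB4P10 are among the 35 and are filled like the others. They passed the level filter through 1 group alone, so their points are to be read as values only.

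By gene family, the shares called with RSL3 lay between 0 and 15.4%, all below the 16.5% of all tested loci. Among 19 copies of NRF2 target, iron, metallothionein and glutathione genes, FTH1P2 was the 1 called with RSL3 (5.26%), and 13 of the 19 had a change above 0. Copies of TXN, the gene of thioredoxin, which itself rose by 0.30 ± 0.0357, went both ways without passing. TXNP6 was at 0.667, 0.272 and 0.443 CPM with DMSO and 0.601, 0.643 and 0.644 CPM with RSL3, and TXNP4 at 0.437, 0.396 and 0.675 CPM and 0.226, 0.346 and 0.258 CPM. GSTM3P2, a copy of a glutathione transferase gene, had -1.15 ± 0.599 with overlapping groups (edgeR adjusted p = 0.222), while GSTM3 rose by 0.36 ± 0.0486. Copies of peroxiredoxin genes, whose enzymes reduce peroxides, did not pass and their groups overlapped. PRDX2P3 had 0.48 ± 0.486 beside 0.13 for PRDX2, and PRDX3P1 and PRDX3P2 had 0.09 ± 0.367 and 0.10 ± 0.436 beside -0.12 for PRDX3. GPX1P1, a copy of a glutathione peroxidase gene, had -0.20 ± 0.499 beside -0.16 for GPX1, and the metallothionein pseudogene MT1P1 had 0.82 ± 0.795, again with overlap. Among 64 copies of RNA-binding and chromatin protein genes 1 was called (HNRNPCP2), among 37 of translation factor genes 1 (TPT1P12), among 35 of nuclear genes for mitochondrial proteins 1 (CHCHD4P5) and among 25 of cytoskeleton genes 1 (KRT8P47). None of 22 chaperone copies, 16 proteasome and ubiquitin copies and 6 glycolysis copies was called by edgeR, with 0, 1 and 1 at an unadjusted p under 0.05. Of 26 pseudogenes listed because they are well known from other studies, ANXA2P2 and FTH1P2 rose and GUSBP16 and KRT8P47 fell, a share of 15.4% near that of all tested loci. None of the 23 ribosomal RNA pseudogenes was called by edgeR, with 2 at an unadjusted p under 0.05. The 7 HNRNPA1 copies had changes from -0.36 to 0.03 beside -0.31 for HNRNPA1, and the 5 NPM1 copies from -0.53 to 0.19 beside -0.31 for NPM1, and none was called.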

How the data were processed

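RNA sequencing of 9 libraries (3 each with DMSO, RSL3 and RSL3 + Fer-1) was analysed from 1 deposited table on GRCh38. The submitters' processing notes name cutadapt 1.9 and FastQC. Which aligner, assembler and counter were used is not given in the sources used here. The deposited estimated counts are whole numbers without scaling, per the file headers, and whether they are read tallies is not settled. The deposited FPKM values are scaled by the authors for length and depth, per the file headers. Loci without a gene name were left out.

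Named loci at FPKM of at least 1 in 3 libraries (17297) were tested on the counts with edgeR 4.0.16 in R 4.3.3 (TMM, robust quasi-likelihood, 1 model over all 9 libraries, Benjamini-Hochberg over all loci). SE come from the F statistic, and CPM from TMM-scaled totals. A parent is the symbol without its final P and digits. Its change is that of its single-name locus or, where there was none, of a joined locus that also holds other genes. Among the parents given, RPS15A was joined with ARL6IP1 and AC138811, SF3A3 with FHL3, and RPS2, RPL7A and TPT1 with small nucleolar RNA genes. Identity is that of the best blastn 2.17.0 alignment of the GENCODE 29 transcript to coding sequence (E-value at most 1e-10). Stretches for display were aligned with Biopython 1.88. Surrounding genes are GENCODE 29 genes that contain the locus. Scripts were tested on simulated data. Genes named were, for each comparison and direction, up to 12 called loci of smallest adjusted p, the 10 highest by FPKM, family members whose own locus or parent was called (only the iron and glutathione family by name, the others as counts), and their parents. Surrounding genes, the 24 close pairs and loci passing through 1 group were named after values were seen. Of the loci this rule names, 1 is not reported here. The members and lists were chosen with earlier results of these data known. Alternatives were RLE factors, DESeq2 1.42.0, limma 3.58.1 on log2(FPKM + 1) or + 0.1, other filters, a replicate block, fits of 2 groups, and leaving out libraries.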

Additional observations from a re-analysis of the deposited data

How the results depend on the processing

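The counts of called pseudogene loci were compared under each alternative. RLE size factors, DESeq2, no FPKM filter, an FPKM of at least 2 and fits of 2 groups kept the 3 counts within 1.5 times of 29, 13 and 6. Limma gave 6 (log2(FPKM + 1)) and 5 (log2(FPKM + 0.1)) for RSL3 + Fer-1 against RSL3. Leaving out 1 library gave 20 to 32 for RSL3 against DMSO, 6 to 10 for RSL3 + Fer-1 against RSL3 and 1 to 6 for RSL3 + Fer-1 against DMSO. With DMSO replicates 1 and 2 left out, chosen after seeing the data, RSL3 against DMSO gave 11, and the 1 remaining DMSO library is assumed to vary like the other groups. The cause was not tested. Of 48 called changes named, 18 held without any 1 library and 30 were lost without at least 1, and none reversed. These counts include the calls of AC007686, which held, and of NDUFB4P10, which were lost. Those loci had to differ between groups to be included, so their calls do not bear on stability. Limma lost 20 and 23 and no FPKM filter 8 of the 48. DESeq2 kept the 34 for which it gave an adjusted p and gave none for the others. Replicates share only a number: same-numbered libraries correlated at -0.0497 to 0.0657, and the replicate block gave 29, 11 and 6 calls. The median log2 ratio of pseudogene to parent moved by 0.075, -0.08 and -0.005 between groups in counts and by 0.038, -0.034 and 0.005 in FPKM. Low counts, a median of 43.3, limit the precision for most loci.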
